A study of Homo sapiens with 6 samples.

Results

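DHRS3 and 6 genes of retinoid signalling were examined in T24, a cell line established from a human bladder carcinoma. The 7 genes, DHRS3, ALDH1A3, CRABP2, RARA, RARG, RXRA and RXRB, are a list set by name. DHRS3 entered it because it was among the genes with the largest rise in this same comparison, so the values of the 7 genes between the groups are given as a description, with no test. All 7 were found among the 11079 genes of the deposited table. In the first group the cells stably carried a lentiviral short hairpin RNA (shRNA) against BLACAT3, a long noncoding RNA (shBLACAT3, genotype label BLACAT3 knockdown). In the second they carried a lentiviral control hairpin (shControl, genotype label WT). Both groups were grown in the same medium with fetal bovine serum and were selected with puromycin. Each group had 3 RNA-seq libraries, 6 in all, numbered as replicates. The labels do not say whether these came from separate cultures, nor how many hairpins or clones each line holds, so the spread may be technical. The level of BLACAT3 was not analysed here, and the group labels were not checked against it.

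Retinoic acid is made from vitamin A in steps. Retinol is oxidised to retinaldehyde, which is either reduced back to retinol or oxidised further, irreversibly, to retinoic acid. Retinoic acid is carried in the cell by small binding proteins, acts through retinoic acid receptors (RAR) paired with retinoid X receptors (RXR) on DNA, and is cleared by CYP26 enzymes. DHRS3, a short-chain dehydrogenase/reductase of the endoplasmic reticulum membrane, reduces retinaldehyde and so lowers the supply of retinoic acid. DHRS3 is itself induced by retinoic acid in many cell types. In the urothelium, retinoid signalling is known for its part in differentiation.

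Each library gave 1 value per gene in FPKM (fragments per kilobase of transcript, scaled by library size). FPKM values hold no read counts, so the depth is unknown. The columns summed to between 211958 and 226953. Of the 14 urothelial and epithelial markers on a list, 3 were measured (KRT7, KRT8 and KRT18), and the other 11, among them the uroplakins and GATA3, were not analysed here. KRT8 averaged 22.1 ± 2.41 FPKM in shBLACAT3 and 60.7 ± 4.78 in shControl libraries (SD, n = 3 each) and fell by 1.42 on the log2 scale (limma adjusted p = 0.000389). KRT18 averaged 74.2 ± 5.19 FPKM in shBLACAT3 and 112 ± 15.0 in shControl libraries and fell by 0.58 (limma adjusted p = 0.0222). Its call was lost without shControl replicate 1 or 3 or without shBLACAT3 replicate 1 or 2 (highest adjusted p = 0.0893). KRT7 averaged 32.0 ± 3.45 FPKM in shBLACAT3 and 20.0 ± 5.62 in shControl libraries and did not pass (log2 difference 0.69, SE 0.21, limma adjusted p = 0.0968), with groups that did not overlap. Of 9 immune and endothelial markers, CD68 was the single one measured, at 0.49, 0.00 and 0.62 FPKM in shBLACAT3 and 1.21, 1.20 and 0.69 FPKM in shControl libraries. The part of these markers in the values below was not tested. In such bulk samples, fewer cells of a kind and less RNA per cell cannot be told apart.

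Of the 7 genes, those with the largest difference in each direction, DHRS3 and CRABP2, are shown with the sequence around their starts, because both are known retinoic acid targets. The RefSeq promoter windows (build GRCh38.p14) span 250 bases before to 50 bases after a start. RefSeq gives 3 windows for DHRS3 and 1 for CRABP2, all on the minus strand. They are printed 5′ to 3′ with the matches to RAR and RXR half-sites in capitals. The half-site AGGTCA was searched on both strands. The variant GGGTCA was searched in the same way, as were AGTTCA and, in addition, GGTTCA.
DHRS3 window 1, chr1:12596564-12596863: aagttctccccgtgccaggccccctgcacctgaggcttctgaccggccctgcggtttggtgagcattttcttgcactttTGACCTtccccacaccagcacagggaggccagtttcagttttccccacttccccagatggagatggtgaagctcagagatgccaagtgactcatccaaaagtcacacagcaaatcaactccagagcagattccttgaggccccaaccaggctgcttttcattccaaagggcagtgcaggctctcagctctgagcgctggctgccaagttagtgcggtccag
DHRS3 window 2, chr1:12616740-12617039: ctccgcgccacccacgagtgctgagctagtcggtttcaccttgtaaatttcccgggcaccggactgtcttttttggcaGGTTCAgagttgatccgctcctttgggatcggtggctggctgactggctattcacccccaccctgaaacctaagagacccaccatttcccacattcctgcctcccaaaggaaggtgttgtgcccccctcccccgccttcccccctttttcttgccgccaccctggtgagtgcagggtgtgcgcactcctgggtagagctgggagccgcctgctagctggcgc
DHRS3 window 3, chr1:12618161-12618460: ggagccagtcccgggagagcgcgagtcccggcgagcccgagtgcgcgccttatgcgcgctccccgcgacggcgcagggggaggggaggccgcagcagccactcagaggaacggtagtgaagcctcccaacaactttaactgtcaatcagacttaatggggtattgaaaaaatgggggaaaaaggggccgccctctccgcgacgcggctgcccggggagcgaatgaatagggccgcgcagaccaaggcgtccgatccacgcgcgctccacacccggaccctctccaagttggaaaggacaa
CRABP2, chr1:156705735-156706034: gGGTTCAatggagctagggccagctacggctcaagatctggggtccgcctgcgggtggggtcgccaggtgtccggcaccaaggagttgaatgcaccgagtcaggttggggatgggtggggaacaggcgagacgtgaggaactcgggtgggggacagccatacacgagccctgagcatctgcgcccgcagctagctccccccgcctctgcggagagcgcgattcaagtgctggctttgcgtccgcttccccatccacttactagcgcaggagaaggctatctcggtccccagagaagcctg

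DHRS3 window 1 held 1 half-site, on the opposite strand. Window 2 also held 1, and window 3 held 0. The CRABP2 window held 1, at its upstream end. Of the 13 windows of the 7 genes, 5 held a half-site, and of 35116 RefSeq windows of the same length 38.6% did. A direct repeat of these half-sites with 1, 2 or 5 bases between them, the arrangement that RAR and RXR pairs bind, was found in 0 of the 13 windows. It was found in 0.131% of all windows with a spacing of 1, in 0.0399% with 2 and in 0.0883% with 5. The matches describe letters only, and which DHRS3 start T24 cells use was not analysed here.

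DHRS3 was higher in shBLACAT3 cells, about 3-fold in mean level. It had 5.06, 5.25 and 6.09 FPKM in shBLACAT3 replicates 1, 2 and 3, against 1.92, 1.65 and 1.47 FPKM in shControl replicates 1, 2 and 3. The lowest shBLACAT3 library was well above the highest shControl library. The means were 5.47 ± 0.549 FPKM in shBLACAT3 and 1.68 ± 0.227 in shControl libraries (SD, n = 3 each), a ratio of 3.25. On the log2(FPKM + 1) scale, where the added 1 shrinks differences between low values, the difference was 1.27 (SE 0.10). Tests were run on the 10008 genes whose average across all libraries reached 1 FPKM, and among them DHRS3 ranked 14 from the highest difference. In shBLACAT3 libraries 47.3% of the genes in the table had a mean at or below that of DHRS3, and in shControl libraries 17.2% did. DHRS3 was thus the lowest of the 7 genes in shControl cells, next to CRABP2, and the second highest in shBLACAT3 cells.

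ALDH1A3, an enzyme that oxidises retinaldehyde to retinoic acid, was the most abundant of the 7 in both groups. It had 16.9, 18.7 and 17.1 FPKM in shBLACAT3 replicates 1, 2 and 3, against 13.2, 11.3 and 13.0 FPKM in shControl replicates 1, 2 and 3. Its groups did not overlap, but they were closer than those of DHRS3, with a ratio of means of 1.41. The log2 difference was 0.46 (SE 0.08), and it ran from 0.40 to 0.50 with 1 library left out.

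CRABP2, which binds retinoic acid in the cytosol and hands it to RARs, went the other way. It had 0.57, 0.44 and 0.35 FPKM in shBLACAT3 replicates 1, 2 and 3, against 2.16, 1.91 and 1.37 FPKM in shControl replicates 1, 2 and 3. The highest shBLACAT3 library was below the lowest shControl library, and the spread within each group was wide (coefficient of variation 23.9% in shBLACAT3 and 22.2% in shControl libraries). The means were 0.454 ± 0.109 FPKM in shBLACAT3 and 1.82 ± 0.404 in shControl libraries (SD, n = 3 each), a ratio of 0.25. The log2 difference was -0.95 (SE 0.13), and CRABP2 ranked 149 from the lowest. CRABP2 entered this ranking only through its shControl level, since its shBLACAT3 mean was under 1 FPKM.

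The receptor genes showed small differences. RARA and RARG encode RARs, which bind retinoic acid. RARA had 4.25, 2.61 and 4.14 FPKM in shBLACAT3 replicates 1, 2 and 3, against 4.05, 4.44 and 3.92 FPKM in shControl replicates 1, 2 and 3. The groups overlapped, and shBLACAT3 replicate 2 lay apart from the other 5 libraries. The log2 difference of RARA was -0.16 (SE 0.16), and without that library it was 0.02. RARG had 2.33, 2.23 and 2.04 FPKM in shBLACAT3 replicates 1, 2 and 3, against 3.23, 2.82 and 2.54 FPKM in shControl replicates 1, 2 and 3. Here the groups did not overlap, with a gap smaller than the spread within shControl libraries. The log2 difference of RARG was -0.27 (SE 0.09).

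RXRA and RXRB encode RXRs, the partners of RARs and of several other nuclear receptors. RXRA had 2.77, 2.21 and 2.28 FPKM in shBLACAT3 replicates 1, 2 and 3, against 2.78, 2.33 and 2.72 FPKM in shControl replicates 1, 2 and 3. RXRB had 3.71, 3.47 and 3.87 FPKM in shBLACAT3 replicates 1, 2 and 3, against 3.96, 3.04 and 3.37 FPKM in shControl replicates 1, 2 and 3. Both genes had overlapping groups, with log2 differences of -0.08 (SE 0.10) for RXRA and 0.08 (SE 0.10) for RXRB. The summed RXRA and RXRB level was 6.10 ± 0.41 FPKM in shBLACAT3 and 6.07 ± 0.684 in shControl libraries (SD, n = 3 each). The summed RARA and RARG level was 5.87 ± 0.91 FPKM in shBLACAT3 and 7.0 ± 0.466 in shControl libraries, and these sums overlapped as well. RARB and RXRG, the third gene of each family, were not analysed here.

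**Figure D1:**
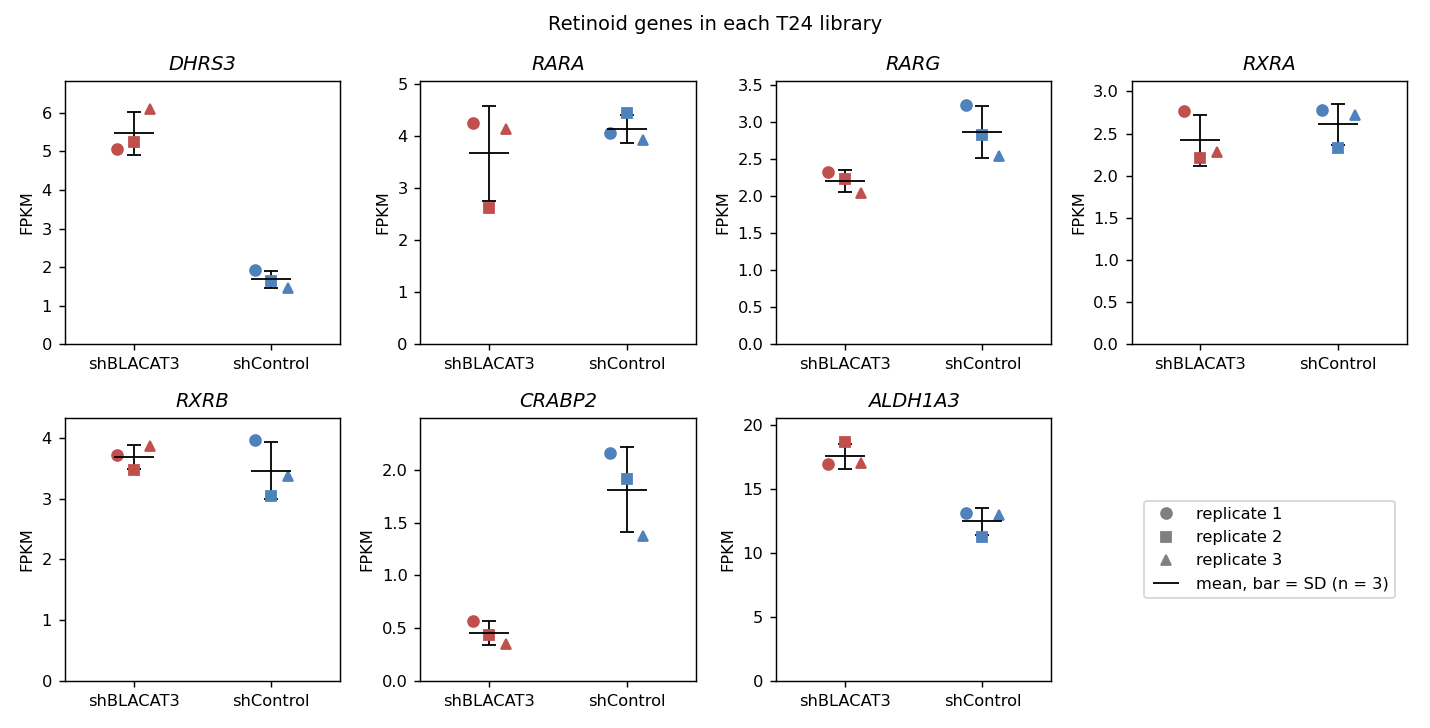
FPKM of each of the 7 genes (vertical axis, from 0) in every shBLACAT3 (red) and shControl (blue) library, with symbols for the replicate number and a bar for the mean and SD of 3 libraries. DHRS3 stands at 5.06 to 6.09 FPKM in shBLACAT3 and 1.47 to 1.92 in shControl libraries, CRABP2 at 0.35 to 0.57 in shBLACAT3 and 1.37 to 2.16 in shControl libraries, and the RARA, RXRA and RXRB groups overlap.

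The order of the levels differed between the groups below ALDH1A3, which was first in both. In shBLACAT3 libraries it ran ALDH1A3, DHRS3, RXRB, RARA, RXRA, RARG and CRABP2. The neighbours RXRB and RARA, RARA and RXRA, and RXRA and RARG had overlapping ranges there. In shControl libraries it ran ALDH1A3, RARA, RXRB, RARG, RXRA, CRABP2 and DHRS3. There RARA, RXRB, RARG and RXRA each overlapped the next, and CRABP2 overlapped DHRS3.

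In limma over all tested genes, 938 of 10008 (9.37%) passed an adjusted p under 0.05, 2.57% higher and 6.8% lower in shBLACAT3 libraries. No call is given for the 7 genes, since they were chosen with this contrast in view. The groups did not overlap in 4 of the 7, DHRS3, ALDH1A3, CRABP2 and RARG. Over all tested genes this held for 32.8% (14.1% with shBLACAT3 higher and 18.6% with shBLACAT3 lower). The median log2 difference of the 7 was -0.08, beside -0.00253 for all tested genes.

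**Figure D2:**
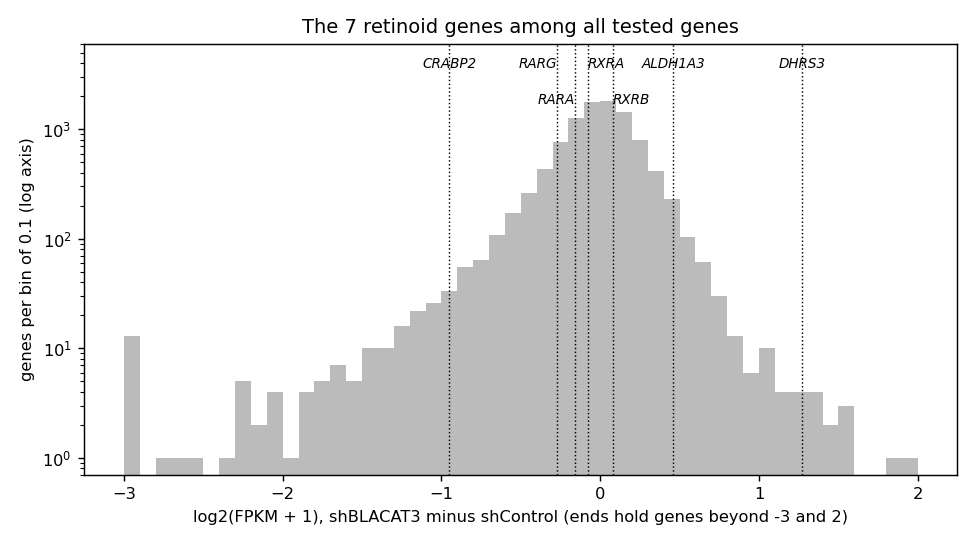
Number of tested genes (vertical log axis) by log2 difference of shBLACAT3 minus shControl in bins of 0.1 on the log2(FPKM + 1) scale (horizontal axis), with dotted lines at the 7 genes. DHRS3 at 1.27 lies in the thin upper tail, CRABP2 at -0.95 in the lower tail, and the 4 receptor genes between -0.27 and 0.08 lie in the bulk.

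The enzymes on either side of DHRS3 in the pathway were taken from lists of retinoid genes beyond the 7. RDH10, the main retinol dehydrogenase of embryos, which forms a complex with DHRS3 in mouse and human cells, fell in shBLACAT3 cells. It had 0.86, 0.95 and 0.77 FPKM in shBLACAT3 replicates 1, 2 and 3, against 1.57, 1.31 and 1.60 FPKM in shControl replicates 1, 2 and 3. Its log2 difference was -0.42 (SE 0.09, limma adjusted p = 0.0286), and it was tested only through its shControl level. The call was lost with shBLACAT3 replicate 1 or 3 or any 1 shControl library left out (highest adjusted p = 0.11). Within a library, the DHRS3 level was 5.90, 5.53 and 7.92 times that of RDH10 in shBLACAT3 replicates 1, 2 and 3, against 1.22, 1.26 and 0.92 times in shControl replicates 1, 2 and 3. The genes were thus near a ratio of 1 in shControl cells, and DHRS3 was several-fold above RDH10 in shBLACAT3 cells. This ratio uses the DHRS3 values that chose the gene and has no test.

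The other 6 retinol and retinaldehyde enzymes tested, RDH11, RDH13, RDH14, DHRS4, ADH5 and AKR1B1, did not pass. RDH11 averaged 22.7 ± 1.28 FPKM in shBLACAT3 and 24.6 ± 0.694 in shControl libraries (SD, n = 3 each), and RDH14 averaged 14.3 ± 0.349 FPKM in shBLACAT3 and 15.6 ± 0.865 in shControl libraries, so both were more abundant than DHRS3. Reads of DHRS4 are shared with near-identical copies, and its value is uncertain. The median log2 difference of these 7 enzymes was -0.11.

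Of the enzymes that make or clear retinoic acid, ALDH1A1, ALDH1A2, CYP26A1 and CYP26C1 were not analysed here. CYP26B1, which degrades retinoic acid, was measured and varied widely between libraries (coefficient of variation 71.3% in shBLACAT3 and 42.8% in shControl, where the highest of the 7 genes was 25%). It had 6.82, 2.16 and 2.25 FPKM in shBLACAT3 replicates 1, 2 and 3, against 9.64, 3.84 and 9.28 FPKM in shControl replicates 1, 2 and 3. The groups overlapped, with a log2 difference of -0.91 (SE 0.44, limma adjusted p = 0.255). CYP2S1, a cytochrome P450 that can oxidise retinoic acid, had a log2 difference of -0.50 (SE 0.23, limma adjusted p = 0.227), and shControl replicate 2 stood at 2.87 FPKM beside 1.37 and 1.02 in the other shControl libraries. CYP1B1 was below the level needed for the test.

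Among genes of retinoid uptake, binding and storage, 1 of 5 tested rose and 1 fell (40.0%, where 9.37% of all tested genes passed). The count is given as a description. FABP5, the fatty acid binding protein that can carry retinoic acid to PPARD in place of RARs, rose. It had 111.5, 112.0 and 123.5 FPKM in shBLACAT3 replicates 1, 2 and 3, against 74.2, 80.6 and 83.3 FPKM in shControl replicates 1, 2 and 3. The log2 difference was 0.54 (SE 0.07, limma adjusted p = 0.0059), and the call held whichever library was left out. Reads of FABP5 may be shared with its processed pseudogenes. CRABP2 amounted to 0.51%, 0.39% and 0.29% of the FABP5 level in shBLACAT3 replicates 1, 2 and 3, against 2.92%, 2.37% and 1.65% in shControl replicates 1, 2 and 3. FABP5 was thus by far the more abundant carrier gene in all 6 libraries. PPARD itself, a receptor that pairs with RXR, averaged 3.51 ± 0.218 FPKM in shBLACAT3 and 3.64 ± 0.0586 in shControl libraries and did not pass (limma adjusted p = 0.779).

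BCO1, which cleaves beta-carotene to retinaldehyde, fell. It had 0.44, 0.47 and 0.42 FPKM in shBLACAT3 replicates 1, 2 and 3, against 2.14, 1.95 and 1.70 FPKM in shControl replicates 1, 2 and 3. The log2 difference was -1.02 (SE 0.08, limma adjusted p = 0.000883), and the call held whichever library was left out. BCO1 was tested only through its shControl level. DGAT1 and SCARB1 had log2 differences of 0.02 and 0.01, and PNPLA4, a lipase that acts on retinyl esters, one of -0.30 (limma adjusted p = 0.0949). The binding protein CRABP1 and the uptake receptor STRA6 were not analysed here.

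**Figure D3:**
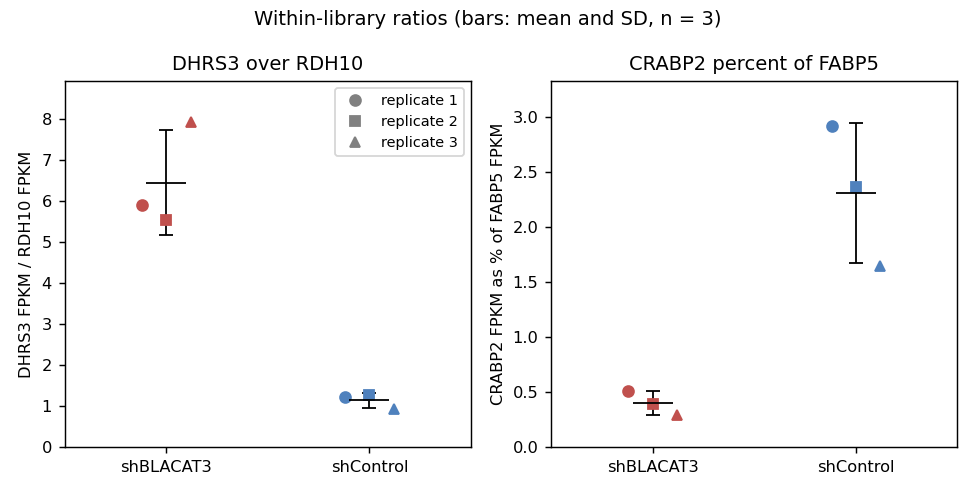
Level of DHRS3 over that of RDH10 (left) and level of CRABP2 as a percent of that of FABP5 (right) within each library, with the mean and SD of 3 libraries. The DHRS3 ratio is 5.53 to 7.92 in shBLACAT3 and 0.92 to 1.26 in shControl libraries, and the CRABP2 share is 0.29% to 0.51% in shBLACAT3 and 1.65% to 2.92% in shControl libraries.

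Of 11 tested nuclear receptors that pair with RXR or bind related sites, 1 fell and 0 rose (9.09%, near the 9.37% of all tested genes). This was VDR, the vitamin D receptor, with 1.01, 0.91 and 0.88 FPKM in shBLACAT3 replicates 1, 2 and 3, against 1.82, 1.77 and 1.56 FPKM in shControl replicates 1, 2 and 3. Its log2 difference was -0.49 (SE 0.08, limma adjusted p = 0.0125), and the call was lost without shControl replicate 1 or 2 (highest adjusted p = 0.0589). VDR was tested only through its shControl level. PPARG, a receptor of urothelial and fat cell differentiation, had groups that did not overlap, at 4.47, 5.05 and 4.60 FPKM in shBLACAT3 and 3.55, 3.48 and 4.26 FPKM in shControl libraries. It did not pass (log2 difference 0.26, SE 0.10, limma adjusted p = 0.146).

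Of 17 receptor coactivators and corepressors, 1 rose and 1 fell (11.8%, near the 9.37% of all tested genes). TBL1X, a subunit of a nuclear receptor corepressor complex, averaged 6.91 ± 0.526 FPKM in shBLACAT3 and 5.07 ± 0.114 in shControl libraries (SD, n = 3 each), a log2 difference of 0.38 (SE 0.08, limma adjusted p = 0.0311). NCOA3, a steroid receptor coactivator, averaged 15.5 ± 0.464 FPKM in shBLACAT3 and 20.2 ± 1.48 in shControl libraries, a log2 difference of -0.36 (SE 0.07, limma adjusted p = 0.029). Both calls were lost without shBLACAT3 replicate 1, shControl replicate 1 or shControl replicate 2, and that of TBL1X also without shControl replicate 3 (highest adjusted p = 0.114 for TBL1X and 0.119 for NCOA3). The corepressor NCOR1 had a log2 difference of 0.09 and did not pass.

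Among genes known as retinoic acid targets in various cell types, 5 of 18 tested fell and 0 rose. This is 27.8%, where 9.37% of all tested genes passed. DHRS3, which was higher in shBLACAT3 cells, and CRABP2, which was lower, are also known targets. Both belong to the 7 genes and are not counted among the 18. The median log2 difference of the 18 was -0.09. Of the 5, PLAAT4, IGFBP3 and BTG2 were tested only through their shControl level, and the list was chosen with earlier results of these data known. The share is therefore given as a description and not as support. IGFBP6, a secreted binding protein of insulin-like growth factors, had the largest fall. It had 10.8, 9.18 and 6.59 FPKM in shBLACAT3 replicates 1, 2 and 3, against 110.4, 89.9 and 94.2 FPKM in shControl replicates 1, 2 and 3. The log2 difference was -3.35 (SE 0.17, limma adjusted p = 0.000104).

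PLAAT4, also known as retinoic acid receptor responder 3, is a phospholipase and acyltransferase that interferon induces as well. It had 0.53, 0.48 and 0.42 FPKM in shBLACAT3 replicates 1, 2 and 3, against 4.15, 5.07 and 4.79 FPKM in shControl replicates 1, 2 and 3, a log2 difference of -1.94 (SE 0.09, limma adjusted p = 7.8e-05). IGFBP3, a further binding protein of insulin-like growth factors, averaged 0.702 ± 0.0412 FPKM in shBLACAT3 and 3.72 ± 0.128 in shControl libraries (SD, n = 3 each), a log2 difference of -1.47 (SE 0.07, limma adjusted p = 9.7e-05). TGM2, a transglutaminase widely used as a readout of retinoic acid, had 53.5, 48.5 and 57.0 FPKM in shBLACAT3 replicates 1, 2 and 3, against 89.3, 85.2 and 82.3 FPKM in shControl replicates 1, 2 and 3. Its log2 difference was -0.68 (SE 0.07, limma adjusted p = 0.0026). The calls of IGFBP6, PLAAT4, IGFBP3 and TGM2 held whichever library was left out.

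BTG2, an antiproliferative gene that p53 also induces, was the fifth target that fell. It averaged 0.63 ± 0.0599 FPKM in shBLACAT3 and 1.38 ± 0.278 in shControl libraries (SD, n = 3 each, limma adjusted p = 0.0267), and its call was lost without shBLACAT3 replicate 1 or 2 or shControl replicate 1 or 3 (highest adjusted p = 0.0971). The HOX genes reported here, HOXA3, HOXA4, HOXA5, HOXB2, HOXB3, HOXB4 and HOXB5, did not pass. HOXA3 had 2.68, 2.64 and 0.57 FPKM in shBLACAT3 replicates 1, 2 and 3, against 3.63, 3.54 and 0.48 FPKM in shControl replicates 1, 2 and 3, so that replicate 3 was low in both groups. SOX9 and LAMB1, further targets, had log2 differences of 0.04 and 0.09 and did not pass.

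In all, 2 of 60 tested genes of the 6 retinoid lists rose and 9 fell (18.3% called). Over all tested genes 9.37% were called, 2.57% higher and 6.8% lower. The median log2 difference of the 60 was -0.05, beside -0.00253 for all tested genes. Without shControl replicate 1 the counts were 1 higher and 5 lower, and without shBLACAT3 replicate 1, shControl replicate 2 or shControl replicate 3 the higher count was also 1. Of the 60, 9 had a mean of at least 1 FPKM in 1 group only, and these include 6 of the 9 that fell (RDH10, BCO1, VDR, PLAAT4, IGFBP3 and BTG2). Over all tested genes this held for 313 of 10008, which include 116 of the 681 that fell. A gene that enters the test only through the group where it is high is selected in part for a difference. Such a gene need not pass, and PNPLA4, THRA and CYP2S1 did not. The lists were also chosen with earlier results of these data known, so the count is given as a description. Of 111 genes on these lists, 67 had a row in the table, and the other 44 were not analysed here.

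**Figure D4:**
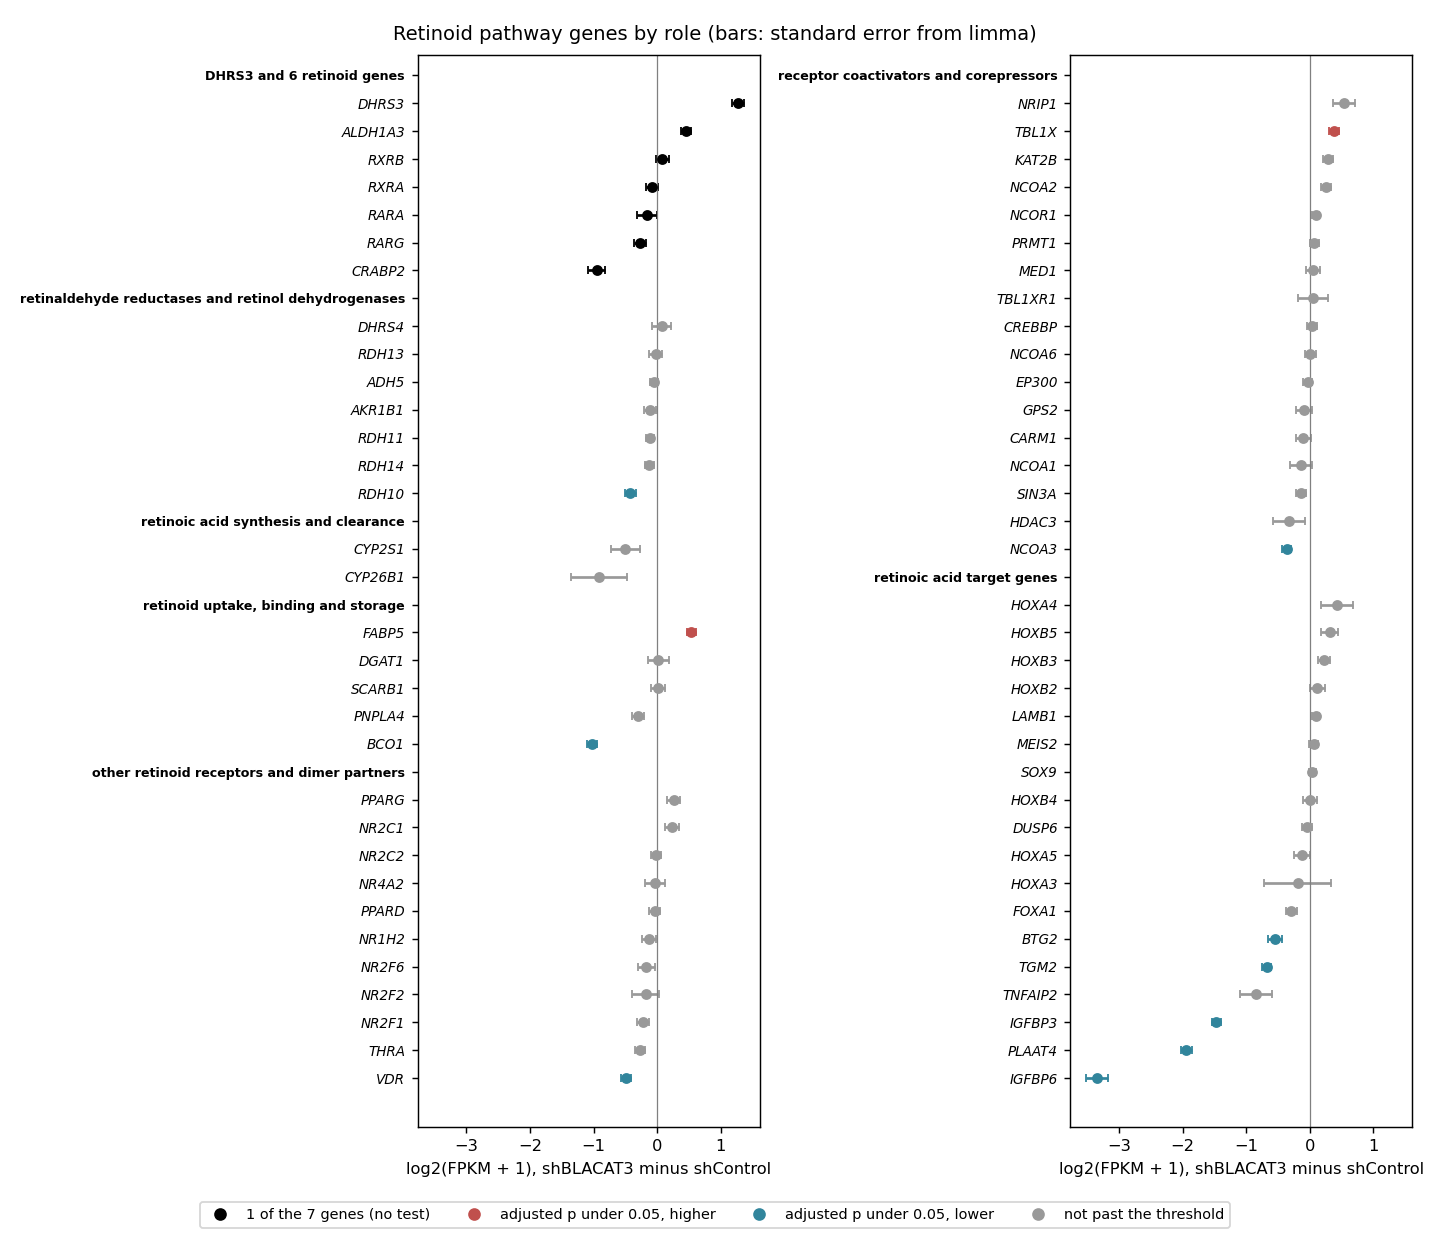
Log2 difference of shBLACAT3 minus shControl on the log2(FPKM + 1) scale (horizontal axis) with its limma standard error for the 7 genes (black, no test) and the 60 tested genes of the 6 lists, grouped by role, with genes past an adjusted p of 0.05 in red (higher) or teal (lower). FABP5 and TBL1X are the 2 red genes, and 5 of the 9 teal genes are retinoic acid targets, down to IGFBP6 at -3.35.

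DHRS3 was also set beside other short-chain dehydrogenase/reductase genes, the enzyme family it belongs to. RDH10, which fell, and RDH11, RDH13, RDH14 and DHRS4 also belong to this family but were counted above. They are left out here, so the share depends on how the lists were split. Of the 17 others tested, 0 rose and 1 fell in limma (5.88%, where 9.37% of all tested genes passed). This was DHRS13, at 1.07, 0.77 and 1.04 FPKM in shBLACAT3 replicates 1, 2 and 3, against 1.65, 1.68 and 2.0 FPKM in shControl replicates 1, 2 and 3 (log2 difference -0.50, SE 0.10, limma adjusted p = 0.0267). Its call was lost when any library but shBLACAT3 replicate 3 was left out (highest adjusted p = 0.0931), and it was tested only through its shControl level. The median log2 difference of the 17 was -0.12. DHRS2 was below the level needed for the test, at 0.26, 0.24 and 0.29 FPKM in shBLACAT3 and 0.87, 0.87 and 0.87 FPKM in shControl libraries. DHRS7, the most abundant gene named DHRS, averaged 17.9 ± 1.05 FPKM in shBLACAT3 and 21.5 ± 1.68 in shControl libraries (limma adjusted p = 0.113). DHRS11, with a log2 difference of 0.22 (SE 0.10, limma adjusted p = 0.226), had the largest positive difference among the other DHRS genes tested.

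The profile of DHRS3 over the 6 libraries was compared with that of every other tested gene. The measure was the root mean square distance between log2(FPKM + 1) values centred on each gene's own mean, and it was 0.657 for the median gene. It rests mostly on the difference between the 2 groups. The closest protein-coding genes were F11R, a tight junction adhesion protein (0.139), RABIF, a chaperone of RAB GTPases (0.151), and IGF2, a growth factor (0.159). PLOD3, a collagen lysyl hydroxylase, and MYD88, an adaptor of Toll-like receptors, followed at 0.162 each. F11R had 11.7, 13.9 and 13.8 FPKM in shBLACAT3 replicates 1, 2 and 3, against 4.12, 4.06 and 3.74 FPKM in shControl replicates 1, 2 and 3. None of the 5 is among the retinoid genes listed here, but this follows from the group difference that put DHRS3 on the list. The 5 had log2 differences of 1.01 to 1.51, whereas FABP5 and NRIP1, the highest of the tested list genes, had 0.54. The closeness is thus a description.

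**Figure D5:**
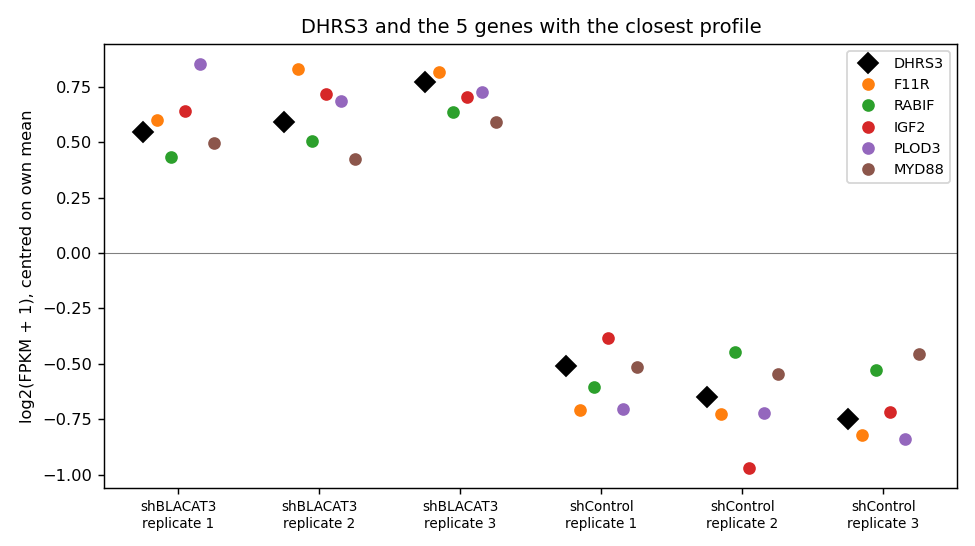
Log2(FPKM + 1) of DHRS3 (black diamonds) and of the 5 genes with the closest profile (coloured circles), each centred on its own mean (vertical axis), in the 3 shBLACAT3 and the 3 shControl libraries (horizontal axis). All 6 genes lie above 0 in the shBLACAT3 and below 0 in the shControl libraries, at distances from DHRS3 of 0.139 to 0.162.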

How the data were processed

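RNA-seq libraries were made with a stranded kit from total RNA of T24 cells, per the labels' protocols. HISAT2 2.1.0, StringTie and cutadapt are named per the submitters' processing notes, without their roles. The genome build is not given in the sources used here, nor is the annotation. What the authors deposited was taken to be FPKM from the form of the numbers (not whole, column sums unequal) and the tools named, since the header gives no unit. Columns headed NC were read as shControl and SH as shBLACAT3. Of 11081 rows, 11007 were matched to a symbol by Ensembl identifier, and rows of 2 repeated symbols were summed. In every row the higher group mean was at least 0.5, so genes below that in both groups were not analysed here.

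Genes averaging 1 FPKM or more were fitted as log2(FPKM + 1) in limma 3.58.1 (R 4.3.3), by group alone and with a mean-variance trend. P-values were two-sided and adjusted by Benjamini-Hochberg over all 10008 genes, with a threshold of 0.05. The test was checked on simulated data. Members and lists were chosen with earlier results of these data known. From each list, up to 4 genes past the threshold with the largest differences were to be named, or the 2 with the smallest p where none passed, plus all receptor, CYP26 and ALDH1A genes. Some genes that these lists could hold are not reported here and enter no count of a list. Other genes named were chosen after their values were seen. Promoter sequences are from RefSeq (GRCh38.p14). Figures were drawn with matplotlib 3.10.9.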

Additional observations from a re-analysis of the deposited data

How the results depend on the processing

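Other settings tried were a pseudocount of 0.1, the replicate number as a block, a mean of at least 0.1 or no filter, median scaling, quantile normalization, limma without the trend, and each library left out in turn. The log2 differences of DHRS3, ALDH1A3, CRABP2 and RARG kept their sign in all 13, and RARA turned without shBLACAT3 replicate 2. RXRA and RXRB kept theirs as well, but with values that came close to no difference. RXRA was at -0.0036 under quantile normalization, and RXRB at 0.0075 without shControl replicate 2. The block, the looser filters and the fit without the trend cannot change the log2 difference of a gene here. Those settings check the calls alone. A pseudocount of 0.1 moved DHRS3 to 1.65 and CRABP2 to -1.79, as it shrinks low values less, and quantile normalization moved CRABP2 to -0.74 (the cause was not tested). With 1 library left out, the differences ran from 1.20 to 1.33 for DHRS3, from -1.06 to -0.86 for CRABP2, and from -0.25 to 0.02 for RARA.

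The labels record no pairing of the replicate numbers. Deviations of same-numbered libraries from their group means correlated at 0.10, 0.117 and 0.0896 across genes. Of 6 libraries, 6 correlated best with the library of their own number in the other group. These 6 comparisons reuse the same correlations and are not independent, so this is a hint from the data and not from the design. With the replicate number as a block, calls over the whole table were 161 higher and 451 lower, against 257 and 681 without it; 1 retinoid list gene was called higher and 7 lower, and 0 other short-chain dehydrogenase/reductase genes. Leaving out 1 library gave 85 to 583 higher and 302 to 732 lower calls over the whole table, 1 to 3 higher and 5 to 8 lower in the retinoid lists, and 0 to 1 lower in the other short-chain dehydrogenase/reductase genes. That last count was 2 with a mean of at least 0.1 or no filter, and 0 under quantile normalization. RDH10 and DHRS13 lost their call with the block and under quantile normalization, NCOA3 and TBL1X with the block, and BTG2 under quantile normalization (the cause was not tested). The read depth is unknown, which limits what can be said of genes near or under 1 FPKM such as CRABP2.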
